A study of Homo sapiens with 12 samples.

Results

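The experiment asked whether depleting the DNA sensor cGAS changes what loss of YAP and TAZ does to the transcriptome of WI-38, a fibroblast line derived from human embryonic lung. It rests on 8 of the 12 libraries of the study, chosen by their siRNA titles, in 4 groups of 2. The cGAS_YT group (replicates 9 and 10) received small interfering RNAs (siRNAs) against cGAS together with siRNAs against YAP and TAZ. The cGAS group (replicates 7 and 8) received the cGAS siRNAs with the control siRNA siAS in the remaining position. The titles of both cGAS groups carry the tag 4x, which the labels do not explain and which the control and YT titles lack. A difference in the amount or make-up of the siRNAs that the tag may stand for cannot be told apart from cGAS depletion. The YT group (replicates 3 and 4) received the YAP and TAZ siRNAs with siAS, and the control group (replicates 1 and 2) received only siAS. All 8 were transfected with a lipid reagent and sequenced from the 3' ends of their messenger RNA. The remaining 4 libraries, with STING siRNAs alone (STING) or with YAP and TAZ siRNAs (STING_YT), entered the same model and serve as an outside comparison.

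YAP (gene YAP1) and TAZ (gene WWTR1) are the transcriptional coactivators that the Hippo pathway holds in check. In the nucleus they bind TEAD factors and drive genes of growth, matrix and the contractile cytoskeleton, and in fibroblasts they respond to a stiff surrounding. cGAS (listed under its older symbol MB21D1) binds DNA in the cytosol and makes cyclic GMP-AMP, which activates STING (listed as TMEM173). STING in turn can activate IRF3, which induces interferons, and NF-kB, which induces inflammatory cytokines.

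The 8 libraries held 17796225 to 20650727 reads over 13937 genes, so that 3 reads were worth 0.142 to 0.170 CPM (counts scaled to library size), the unit of all levels below. Tests covered 13894 genes that reached 1 CPM in 2 or more of the 12 libraries. Replicates correlated across genes with r of at least 0.987 in each of the 4 groups. More than a 2-fold gap between replicates was found for 54 genes in cGAS_YT, 29 in cGAS, 249 in YT and 77 in control, so the YT pair was the least alike. The labels do not say whether replicates are separate cultures, so the spread behind every p-value may be technical. In bulk RNA, fewer cells of a kind and less RNA per cell cannot be told apart. All 12 fibroblast markers were measured, with a summed level of 23644 and 26797 CPM in cGAS_YT, 24549 and 23528 CPM in cGAS, 30032 and 28149 CPM in YT and 34417 and 33853 CPM in control. Of 23 markers of epithelial, endothelial, blood and mural cells, 8 were measured. The other 15, EPCAM, PECAM1 and PTPRC among them, had no entry among the 13937 genes. The 8 summed to 132 and 136 CPM in cGAS_YT, 104 and 98.8 CPM in cGAS, 168 and 164 CPM in YT and 130 and 135 CPM in control. Most of that was TEK, a receptor of endothelial cells, at 56.5 to 115 CPM. The part of these markers in the results was not tested.

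For each gene the interaction is the effect of the YAP/TAZ siRNAs in cells with cGAS siRNAs (cGAS_YT minus cGAS) minus their effect without (YT minus control), as differences of log2(CPM + 1), with its standard error. An interaction of 0 means that the fold changes of both treatments multiply. Genes were called with limma at a Benjamini-Hochberg adjusted p under 0.05. An effect called in YT against control was named lost where the interaction was called and no effect was called in cGAS_YT against cGAS. It was named weakened or reversed where the interaction and an effect in cGAS_YT against cGAS were both called, and that effect was smaller or opposite. It was named strengthened where the called interaction had the sign of the effect in YT against control. An effect called only with cGAS siRNAs, beside a called interaction, was named gained.

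The promoters of the genes at both ends of the ranking are shown because their transcripts set the range of the interaction. CXCL8 and CXCL1 encode chemokines that attract neutrophils and had the lowest values, and OXTR, the oxytocin receptor gene, and MEST, an imprinted gene for a hydrolase-like protein, had the highest. Each line holds the 250 bases before the RefSeq start site, on the gene's strand, in GRCh38.p14. The windows are chr4:73740319-73740568 on the plus strand for CXCL8, chr4:73869143-73869392 on the plus strand for CXCL1, chr3:8769614-8769863 on the minus strand for OXTR and chr7:130485925-130486174 on the plus strand for MEST. Capitals mark matches to GGNNNTTCC, a core of NF-kB motifs, and to TGANTCA, the AP-1 motif, searched on both strands together with GGAATG, the TEAD motif.
CXCL8: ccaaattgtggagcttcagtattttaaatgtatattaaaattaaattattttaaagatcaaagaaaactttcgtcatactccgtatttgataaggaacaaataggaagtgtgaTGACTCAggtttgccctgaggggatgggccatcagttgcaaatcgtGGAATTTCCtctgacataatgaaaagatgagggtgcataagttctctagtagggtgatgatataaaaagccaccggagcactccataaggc
CXCL1: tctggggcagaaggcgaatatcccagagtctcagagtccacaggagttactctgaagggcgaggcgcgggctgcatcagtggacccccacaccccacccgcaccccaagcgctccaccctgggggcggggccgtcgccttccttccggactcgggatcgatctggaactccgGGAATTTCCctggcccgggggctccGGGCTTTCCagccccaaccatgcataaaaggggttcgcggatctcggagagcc
OXTR: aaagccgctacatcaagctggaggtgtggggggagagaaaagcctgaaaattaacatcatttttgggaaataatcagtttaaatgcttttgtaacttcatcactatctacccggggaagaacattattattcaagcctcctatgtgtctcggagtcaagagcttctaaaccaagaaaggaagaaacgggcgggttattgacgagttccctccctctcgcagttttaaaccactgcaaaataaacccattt
MEST: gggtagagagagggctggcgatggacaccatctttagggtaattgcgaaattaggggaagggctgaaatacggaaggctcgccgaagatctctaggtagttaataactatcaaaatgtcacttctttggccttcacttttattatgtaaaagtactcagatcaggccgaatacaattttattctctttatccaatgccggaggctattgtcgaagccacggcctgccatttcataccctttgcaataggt
The CXCL8 window held 1 NF-kB match, 91 to 83 bases before the start, and 1 AP-1 match, 137 to 131 bases before it, with no overlap. The CXCL1 window held 2 NF-kB matches, at 78 to 70 and 53 to 45 bases before the start. No TEAD match lay in any of the 4 windows, and OXTR and MEST had no match of any kind. Among 34788 promoter windows of the same length, 17.1% held the NF-kB motif, 6.591% the AP-1 motif and 11.89% the TEAD motif. A match describes the letters only.

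The siRNAs lowered their targets in both settings, and YAP1 was left somewhat higher when cGAS siRNAs were present. YAP1 (chromosome 11, 102110461 to 102233423 on GRCh38) had 24.6 and 21.7 CPM in cGAS_YT, 95.5 and 91.1 CPM in cGAS, 16.3 and 13.02 CPM in YT and 114 and 105 CPM in control. Both cGAS_YT libraries lay above both YT libraries and far below the rest. The YAP1 mean in cGAS_YT was 24.8% of that in cGAS, and in YT it was 13.4% of control, an interaction of 0.86 ± 0.19 (limma, adjusted p = 0.00516). WWTR1, which encodes TAZ, had 17.9 and 18.8 CPM in cGAS_YT, 93.5 and 97.7 CPM in cGAS, 22.8 and 16.7 CPM in YT and 133 and 144 CPM in control. Its cGAS_YT libraries fell between the 2 YT libraries, and the interaction of 0.44 ± 0.17 was not called (adjusted p = 0.108). MB21D1 had 1.65 and 1.30 CPM in cGAS_YT, 1.94 and 1.77 CPM in cGAS, 7.66 and 6.07 CPM in YT and 9.60 and 6.14 CPM in control. The cGAS transcript was thus at 21.5% of its YT level in cGAS_YT and at 23.6% of its control level in cGAS, with no overlap. The part of the remaining YAP1 transcript in weaker YAP/TAZ effects was not tested. TMEM173, which encodes STING, had 25.6 and 21.0 CPM in cGAS_YT, 28.4 and 29.9 CPM in cGAS, 18.1 and 19.2 CPM in YT and 24.5 and 23.6 CPM in control, and its interaction was not called (adjusted p = 0.946).

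Fewer genes were called for the YAP/TAZ siRNAs when cGAS siRNAs were present. In cGAS_YT against cGAS 3848 genes (27.7% of those tested) were called, against 5773 (41.6%) in YT against control. The interaction was called for 1866 genes (13.4%), of which 1042 (7.50%) were positive and 824 (5.93%) negative, and 1517 of them were also called in YT against control. At least a 2-fold departure was reached by 428 positive (3.08%) and 322 negative (2.32%) interactions. Across all genes tested the median effect was 0.03 in cGAS_YT against cGAS and 0.00 in YT against control, and the median interaction was 0.02. The effects of the 2 comparisons, which share no library, correlated across genes with Pearson's r of 0.575 and Spearman's rho of 0.530, where genes are not independent replicates. The counts rested on single libraries. Without cGAS replicate 7 there were 470 negative and 636 positive interactions, without cGAS replicate 8 there were 524 and 659, and without YT replicate 3 there were 1334 and 1914.

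**Figure D1:**
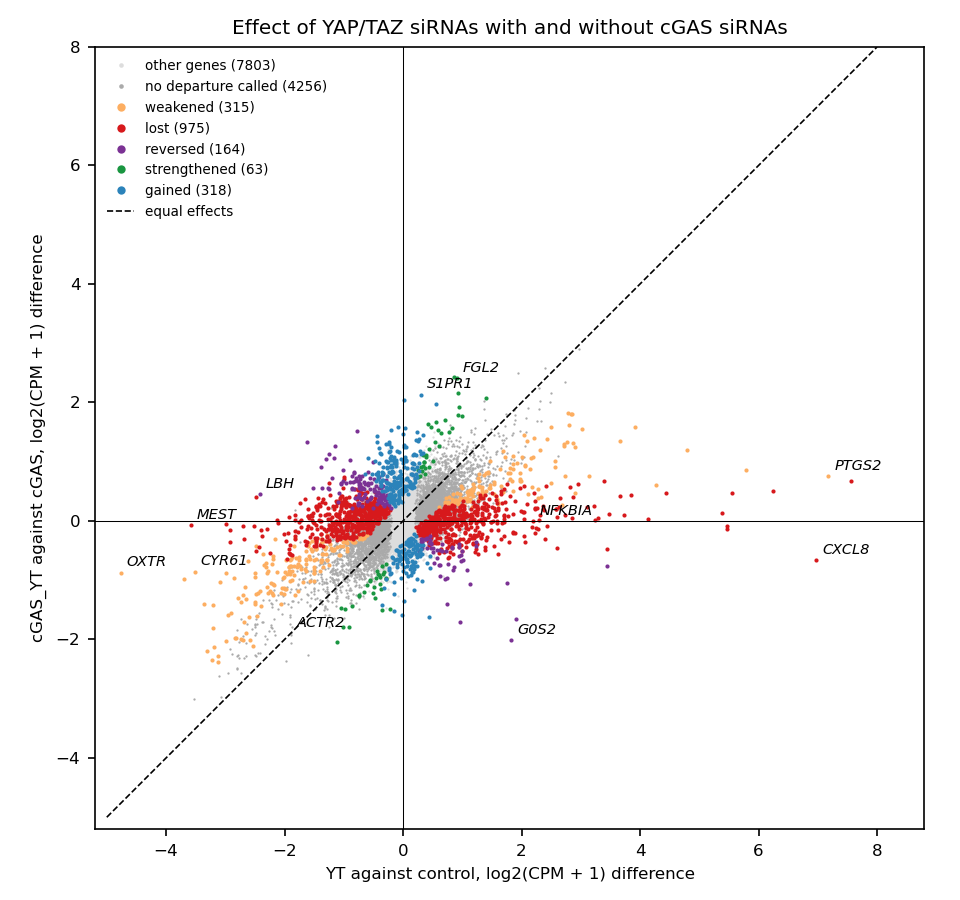
Each point is 1 of the 13894 genes tested, with its log2(CPM + 1) difference in cGAS_YT against cGAS on the vertical axis and in YT against control on the horizontal axis, coloured by class. CXCL8 and PTGS2 lie far right and close to the horizontal line at 0, OXTR and MEST lie far left, and ACTR2 lies on the dashed line of equal effects.

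Of the 5773 genes called in YT against control, 4256 (73.7%) showed no called departure from multiplying fold changes. For 1660 of them (28.8% of the 5773) the 95% confidence interval of the interaction lay within 1.5-fold of 0, and these are called additive on the log scale below. The effect was lost for 975 genes (16.9%), weakened for 315, reversed for 164 and strengthened for 63, and 318 further genes gained an effect. For 686 of the 975 lost genes the interval of the effect in cGAS_YT against cGAS was itself within 1.5-fold of 0. For the other lost genes a missed threshold does not show that no effect was present. Loss and weakening took a larger share of big effects. Of 605 genes that rose at least 2-fold in YT, 205 (33.9%) were lost and 109 weakened. Of 700 that fell at least 2-fold, 172 (24.6%) were lost and 157 weakened. Both classes need a called interaction, whose median standard error was 0.22, and a large effect leaves more room for one. The larger share may thus come from the definition. Without YT replicate 3 the lost class held 1568 genes, the weakened 592, the reversed 330 and the gained 582. Leaving out either cGAS library gave 139 and 151 weakened, 87 and 84 reversed, 34 and 25 strengthened and 170 and 175 gained genes, without replicates 7 and 8 in turn. Without cGAS_YT replicate 10 there were 192 weakened, 87 reversed, 28 strengthened and 146 gained genes, and without cGAS_YT replicate 9 there were 175 weakened genes. Without control replicate 1 there were 29 strengthened genes, and without control replicate 2 there were 28 strengthened and 203 weakened genes.

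**Figure D2:**
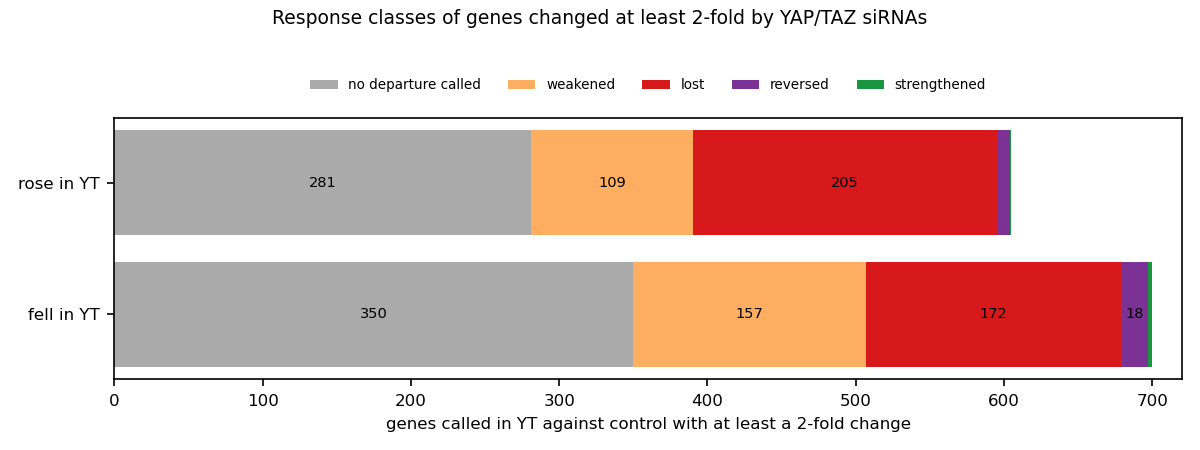
Bars count the genes called in YT against control with at least a 2-fold change, 605 that rose and 700 that fell, split by class. No departure was called for 281 of the risen and 350 of the fallen genes, and the lost class held 205 and 172.

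Picking genes by YT against control favours an interaction of the opposite sign, because both use the same 4 libraries. Genes picked from the STING libraries avoid this. Of 504 genes that rose at least 2-fold in STING_YT against STING, the median effect was 0.82 in cGAS_YT against cGAS and 0.99 in YT against control, and 100 (19.8%) had a negative and 35 (6.94%) a positive interaction. For 631 genes that fell at least 2-fold there the medians were -0.86 and -1.28, and 194 (30.7%) had a positive and 29 (4.60%) a negative interaction. Genes chosen by effects in other libraries thus also departed mostly toward a smaller effect in cells with cGAS siRNAs. The shares over all genes were 5.93% and 7.50%, which is not a like-for-like background. Both choices used the spread of 1 fit of all 12 libraries, and genes of low spread are called more readily in each. In STING_YT against STING 5405 genes (38.9%) were called. Of the 483 risen genes in the lost class, 198 (41.0%) rose in STING_YT against STING too (19.1% of all genes), with a median there of 0.29. Of the 492 fallen genes, 253 (51.4%) fell there too (19.8% of all genes), with a median of -0.36. Lost genes were all called in YT against control, so the shares over all genes are not a like-for-like background. Among genes with no called departure, 58.2% of rises and 65.2% of falls were called there too. Among weakened genes these shares were 91.9% and 100%. Whether the interaction with cGAS differs from one with STING was not tested here.

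The strongest departures were rises in YT that were absent or small in cGAS_YT, and 7 of the 12 most negative interactions were those of chemokine and interleukin genes. The 12 most negative interactions among genes averaging 5 CPM or more were CXCL8, CXCL1, PTGS2, IL24, IL1B, CXCL3, IL1A, CXCL5, C11orf96, STC1, SLC16A6 and NR4A2. Besides the 7, PTGS2 encodes a prostaglandin-forming enzyme, STC1 the hormone stanniocalcin-1, SLC16A6 a transporter and NR4A2 a nuclear receptor. In these genes the interaction ran between -7.63 and -3.97, with a highest limma adjusted p of 8.46e-06. Their effects lay between -0.76 and 0.85 in cGAS_YT against cGAS and between 3.44 and 7.56 in YT against control. Of the 12, 9 were lost, PTGS2 and C11orf96 were weakened and STC1 was reversed. In all 12 both YT libraries lay above the 6 others (15.9% of all genes tested). The 12 were picked by an interaction computed from these same libraries, which favours that position, so it adds no support. With STING siRNAs, in STING_YT against STING, the YAP/TAZ siRNAs raised 10 of the 12 (19.1% of all genes), by up to 4.13. Of rises in YT with no called departure, 58.2% were called there too.

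CXCL8 (chromosome 4, 73740506 to 73743716), the neutrophil chemokine interleukin-8, had 4.20 and 3.06 CPM in cGAS_YT, 8.37 and 4.61 CPM in cGAS, 493 and 146 CPM in YT and 0.727 and 1.65 CPM in control. The YT libraries were by far the highest, and they differed from each other more than 2-fold. All libraries with cGAS siRNAs lay above both control libraries. The effect was -0.66 in cGAS_YT against cGAS and 6.98 in YT against control, an interaction of -7.63 ± 0.56 (limma, adjusted p = 1.74e-07). Multiplying the ratios of the mean CPM values would give 1746 CPM in cGAS_YT, and adding the CPM differences would give 325 CPM. CXCL1 had 5.67 and 2.59 CPM in cGAS_YT, 2.44 and 1.72 CPM in cGAS, 496 and 292 CPM in YT and 2.49 and 0.170 CPM in control, an interaction of -6.88 ± 0.56 (adjusted p = 5.75e-07). Its lower control library stood at the worth of 3 reads. CXCL1, CXCL2 and CXCL3 are close relatives, and how reads were split between them is uncertain.

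Interleukin genes behaved alike. IL24, a cytokine of the IL-10 family, had 1.13 and 0.208 CPM in cGAS_YT, 0.166 and 0.0982 CPM in cGAS, 112 and 112 CPM in YT and 0.571 and 0.398 CPM in control (interaction -5.75 ± 0.35, adjusted p = 2.67e-08). IL1B, which encodes the secreted pyrogen interleukin-1 beta, had 1.65 and 2.23 CPM in cGAS_YT, 2.77 and 1.72 CPM in cGAS, 90.7 and 58.5 CPM in YT and 1.25 and 0.227 CPM in control (interaction -5.60 ± 0.40). Outside YT both interleukins stayed below 3 CPM. Over the list of neutrophil-attracting chemokines and inflammatory cytokines, 20 of 24 genes were tested and 13 had a negative interaction, none a positive one, beside 5.93% and 7.50% of all genes. The median interaction was -3.01, beside 0.02 over all genes. The cGAS siRNAs alone raised 7 and lowered 1 of the 20 against control (11.1% and 14.3% of all genes), with a median of 0.53. In cGAS_YT against cGAS 2 rose and 1 fell (background 15% and 12.7%), with a median of 0.21, and in YT against control 15 rose and none fell (background 20.6% and 20.9%), with a median of 2.91. The 20 transcripts summed to 186 and 116 CPM in cGAS_YT, 145 and 123 CPM in cGAS, 1778 and 969 CPM in YT and 114 and 111 CPM in control. IL6 did not share the pattern across both YT libraries: it had 3.21 and 1.40 CPM in cGAS_YT, 6.15 and 7.12 CPM in cGAS, 11.3 and 0.926 CPM in YT and 4.36 and 3.98 CPM in control. Its interaction of -1.17 ± 0.75 was not called (adjusted p = 0.341), and without YT replicate 4 it was -2.51 (adjusted p = 5.32e-05).

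**Figure D3:**
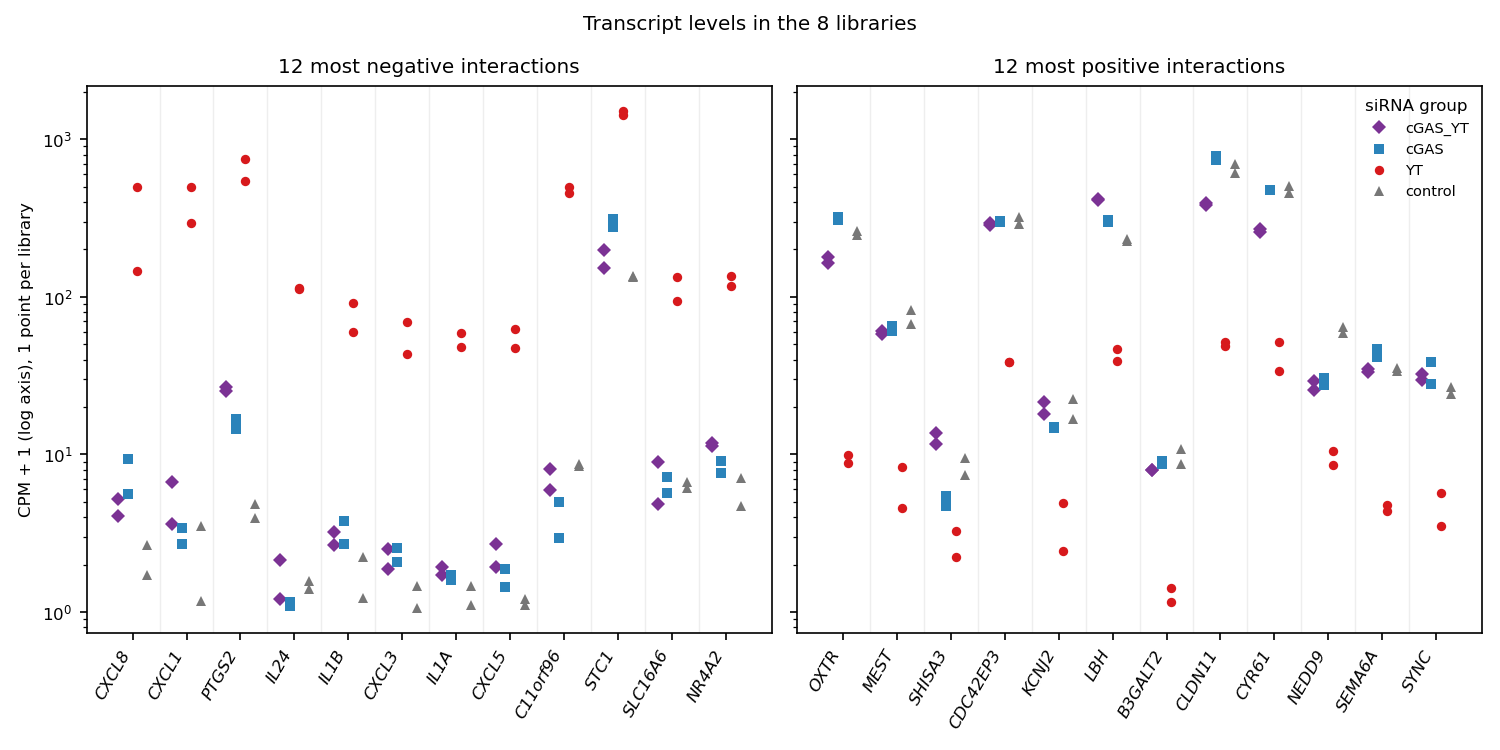
Points are the 8 libraries of the 12 genes with the most negative (left) and the 12 with the most positive (right) interactions, as CPM + 1 on a log axis. On the left the YT points stand above the other 6 in every gene, and on the right they stand below them.

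NF-kB is held inactive by inhibitors, several of which it induces itself. Of 25 NF-kB subunits, feedback inhibitors and targets, 21 had a negative interaction and none a positive one (5.93% and 7.50% of all genes), with a median of -1.34. The median effect was 0.00 in cGAS_YT against cGAS, where 7 rose and 3 fell (15% and 12.7% of all genes). It was 1.34 in YT against control, where 24 rose and none fell (20.6% and 20.9% of all genes). NFKBIA, the inhibitor IkB-alpha, had 224 and 186 CPM in cGAS_YT, 208 and 201 CPM in cGAS, 897 and 960.4 CPM in YT and 203 and 199 CPM in control. The first 2 groups and control overlapped closely, and only YT was high, an interaction of -2.20 ± 0.13 (adjusted p = 2.43e-08). TNFAIP3, the ubiquitin-editing inhibitor A20, had 22.5 and 16.3 CPM in cGAS_YT, 16.3 and 19.0 CPM in cGAS, 215 and 188 CPM in YT and 17.1 and 17.0 CPM in control (interaction -3.37 ± 0.26). SOD2, mitochondrial superoxide dismutase, and ICAM1, a leukocyte adhesion molecule, were lost as well, with interactions of -2.69 and -2.41. VCAM1, another adhesion molecule, was weakened, at 88.3 and 72.0 CPM in cGAS_YT, 59.2 and 56.4 CPM in cGAS, 276 and 279 CPM in YT and 71.8 and 56.6 CPM in control (interaction -1.65 ± 0.17). BIRC3, an inhibitor of apoptosis, was reversed, at 6.71 and 5.91 CPM in cGAS_YT, 13.02 and 13.4 CPM in cGAS, 29.2 and 30.9 CPM in YT and 17.7 and 17.3 CPM in control (interaction -1.71 ± 0.21). The NF-kB subunit gene RELA was called in neither effect. TNFAIP8 kept its rise: its effect was 1.26 in cGAS_YT against cGAS and 1.74 in YT against control, and its interaction was not called (adjusted p = 0.107). Of the 25 genes, 22 had both YT libraries above the 6 others (15.9% of all genes).

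PTGS2 and PTGES, which encode enzymes of prostaglandin synthesis, and the EGF-family ligand genes AREG, EREG and NRG1 were weakened. PTGS2 (chromosome 1, 186671791 to 186680427), the inducible cyclooxygenase COX-2, had 24.4 and 25.9 CPM in cGAS_YT, 13.4 and 15.7 CPM in cGAS, 749 and 539 CPM in YT and 2.96 and 3.86 CPM in control. It was higher in cGAS_YT than in cGAS (0.75, adjusted p = 0.0229), far less than in YT against control (7.18), an interaction of -6.43 ± 0.33 (adjusted p = 2.51e-09). PTGES, the inducible prostaglandin E synthase, had 14.3 and 12.9 CPM in cGAS_YT, 4.82 and 4.61 CPM in cGAS, 70.1 and 92.3 CPM in YT and 5.86 and 5.06 CPM in control (interaction -2.31 ± 0.22). The constitutive cyclooxygenase gene PTGS1 was additive: it had 525 and 541 CPM in cGAS_YT, 257 and 256 CPM in cGAS, 413 and 401 CPM in YT and 172 and 160.1 CPM in control, effects of 1.05 and 1.29. PTGER2, a prostaglandin E2 receptor, was reversed, at 59.0 and 58.3 CPM in cGAS_YT, 31.6 and 32.2 CPM in cGAS, 18.3 and 13.1 CPM in YT and 33.4 and 30.9 CPM in control (interaction 1.86 ± 0.19). Over 11 such genes 4 interactions were negative and 1 positive (5.93% and 7.50% of all genes), with a median of -0.05, and without YT replicate 3 there were 2 positive.

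AREG, which encodes the EGF receptor ligand amphiregulin, had 63.8 and 44.3 CPM in cGAS_YT, 25.8 and 19.6 CPM in cGAS, 568 and 492 CPM in YT and 17.8 and 18.5 CPM in control. The rise was present in both settings but smaller with cGAS siRNAs, 1.21 in cGAS_YT against cGAS and 4.79 in YT against control (interaction -3.59 ± 0.24, adjusted p = 6.54e-08). The related ligand genes EREG and NRG1 were weakened too, with interactions of -3.65 and -2.43. HBEGF, another ligand of this family, fell in both settings, with 9.02 and 9.80 CPM in cGAS_YT, 20.7 and 18.9 CPM in cGAS, 6.08 and 5.35 CPM in YT and 13.2 and 15.1 CPM in control, and showed no called departure. Of 6 genes of the EGF receptor family and its ligands tested, 4 had a negative and 1 a positive interaction (5.93% and 7.50% of all genes), and the 1 positive call was lost without cGAS replicate 7.

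In the other direction, falls in YT were smaller or absent with cGAS siRNAs. The 12 most positive interactions were OXTR, MEST, SHISA3, CDC42EP3, KCNJ2, LBH, B3GALT2, CLDN11, CYR61, NEDD9, SEMA6A and SYNC. Among them the interaction ran between 2.43 and 3.89, with a highest adjusted p of 2.04e-05. Effects lay between -0.97 and 1.33 in cGAS_YT against cGAS and between -4.77 and -1.63 in YT against control. Of the 12, 7 were lost, OXTR, CLDN11 and CYR61 were weakened and SHISA3 and LBH were reversed. Both YT libraries lay below the 6 others in all 12 (14% of all genes tested). That position too is favoured by picking the 12 from the same libraries and adds no support. The YAP/TAZ siRNAs also lowered 10 of the 12 in STING_YT against STING (19.8% of all genes). Of falls in YT with no called departure, 65.2% were called there too.

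OXTR (chromosome 3, 8750408 to 8769628) had 179 and 163 CPM in cGAS_YT, 307 and 319.6 CPM in cGAS, 8.93 and 7.77 CPM in YT and 246 and 259 CPM in control. The 4 groups did not overlap, and YT stood far below the rest. The effect was -0.87 in cGAS_YT against cGAS and -4.77 in YT against control, an interaction of 3.89 ± 0.16 (adjusted p = 3.44e-10). MEST (chromosome 7, 130486171 to 130506465) had 57.2 and 60.1 CPM in cGAS_YT, 63.9 and 59.5 CPM in cGAS, 7.29 and 3.60 CPM in YT and 66.0 and 81.1 CPM in control, so that cGAS_YT and cGAS overlapped (interaction 3.51 ± 0.26). CDC42EP3, an effector of the small GTPase CDC42, had 286 and 291 CPM in cGAS_YT, 299 and 301 CPM in cGAS, 37.8 and 37.7 CPM in YT and 290.3 and 319.9 CPM in control (interaction 2.92 ± 0.13). Its fall in YT was lost: the effect in cGAS_YT against cGAS was -0.06, with a 95% interval between -0.25 and 0.13. CLDN11, a tight junction claudin, had 394 and 382 CPM in cGAS_YT, 743 and 784 CPM in cGAS, 50.3 and 48.0 CPM in YT and 614 and 693 CPM in control (interaction 2.73 ± 0.12).

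Among YAP/TAZ target genes themselves the commonest outcome was a fall that was kept but weaker. Of 22 such genes, 13 had a positive and 2 a negative interaction (7.50% and 5.93% of all genes), with a median of 0.64. In cGAS_YT against cGAS 15 fell and 3 rose (12.7% and 15% of all genes), with a median of -0.51. In YT against control 15 fell and 1 rose (20.9% and 20.6% of all genes), with a median of -1.07. By class 9 were weakened, AMOTL2 and RBMS3 were lost, GADD45A was reversed, 3 gained an effect and 4 showed no departure. These classes, other than gained, cover the 16 called in YT against control. Of all 5773 genes called there, 315 were weakened, 975 lost and 164 reversed, and 4256 showed no departure. Of all 13894 genes tested, 318 gained an effect. CYR61 (chromosome 1, 85580761 to 85583962), a matricellular protein gene now named CCN1, had 268 and 259 CPM in cGAS_YT, 479 and 475 CPM in cGAS, 50.6 and 32.8 CPM in YT and 502 and 454 CPM in control. The cGAS_YT libraries lay between the others with no overlap (effects of -0.86 and -3.52, interaction 2.66 ± 0.19, adjusted p = 1.24e-07). CTGF, its relative CCN2, had 207 and 194 CPM in cGAS_YT, 648 and 664 CPM in cGAS, 125 and 76.4 CPM in YT and 632 and 637 CPM in control, with an interaction of 0.98 ± 0.21 (adjusted p = 0.00498), which was 0.63 without YT replicate 4 and 1.33 without YT replicate 3. ANKRD1, a cardiac ankyrin repeat protein gene, had 19.8 and 14.01 CPM in cGAS_YT, 34.6 and 35.8 CPM in cGAS, 0.475 and 0.978 CPM in YT and 14.9 and 12.2 CPM in control. The ANKRD1 level in cGAS_YT thus overlapped that in control, while its effect was still -1.03 in cGAS_YT against cGAS. IGFBP3, which encodes an IGF binding protein, fell by 1.65 in cGAS_YT against cGAS and by 2.17 in YT against control, with no called departure (adjusted p = 0.123). Of the TEAD and VGLL genes, TEAD1, the DNA-binding partner, and VGLL3, a TEAD cofactor, were lost, with interactions of 0.90 and 1.58.

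Contractile and focal adhesion genes fell in YT, and for most of them no fall was called with cGAS siRNAs. Of 24, 16 had a positive and none a negative interaction (7.50% and 5.93% of all genes), with a median of 0.62. In cGAS_YT against cGAS 5 fell and 3 rose (12.7% and 15% of all genes), with a median of 0.03. In YT against control 20 fell and none rose (20.9% and 20.6% of all genes), with a median of -0.80. The cGAS siRNAs alone lowered 9 and raised 3 of the 24 against control (14.3% and 11.1% of all genes), with a median of -0.17. By class 10 were lost, FHL2 and ZYX weakened and LMOD1, ACTA2 and MYLK reversed, and 5, MYL9 among them, showed no departure. These classes cover the 20 called in YT against control. Of all 5773 genes called there, 975 were lost, 315 weakened and 164 reversed, and 4256 showed no departure. ACTA2, smooth muscle actin, had 2127 and 2241 CPM in cGAS_YT, 1719 and 1764 CPM in cGAS, 790.1 and 934 CPM in YT and 1753 and 1915 CPM in control. It was above cGAS in cGAS_YT (0.33, adjusted p = 0.021) and below control in YT (-1.09), an interaction of 1.42 ± 0.14 (adjusted p = 4.05e-06). CNN1, calponin, had 219.8 and 222 CPM in cGAS_YT, 219 and 213 CPM in cGAS, 79.7 and 90.5 CPM in YT and 190.2 and 221 CPM in control (interaction 1.29 ± 0.13). TAGLN, transgelin, had 1089 and 1213 CPM in cGAS_YT, 1037 and 1098 CPM in cGAS, 539.9 and 627 CPM in YT and 1197 and 1366 CPM in control (interaction 1.24 ± 0.15). In TAGLN both cGAS libraries also lay below both control libraries. In all 3 genes YT was the lowest group. THBS1, the matrix glycoprotein thrombospondin-1, moved in the same manner, with 516 and 471 CPM in cGAS_YT, 495 and 482 CPM in cGAS, 157 and 129 CPM in YT and 543 and 469.6 CPM in control (interaction 1.84 ± 0.14). Of 29 matrix structural and crosslinking genes, 5 interactions were positive and 2 negative (7.50% and 5.93% of all genes), with a median of 0.18. The 5 became 3 without cGAS_YT replicate 10, cGAS replicate 8 or control replicate 2, and without YT replicate 3 there were 11 positive and 4 negative.

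**Figure D4:**
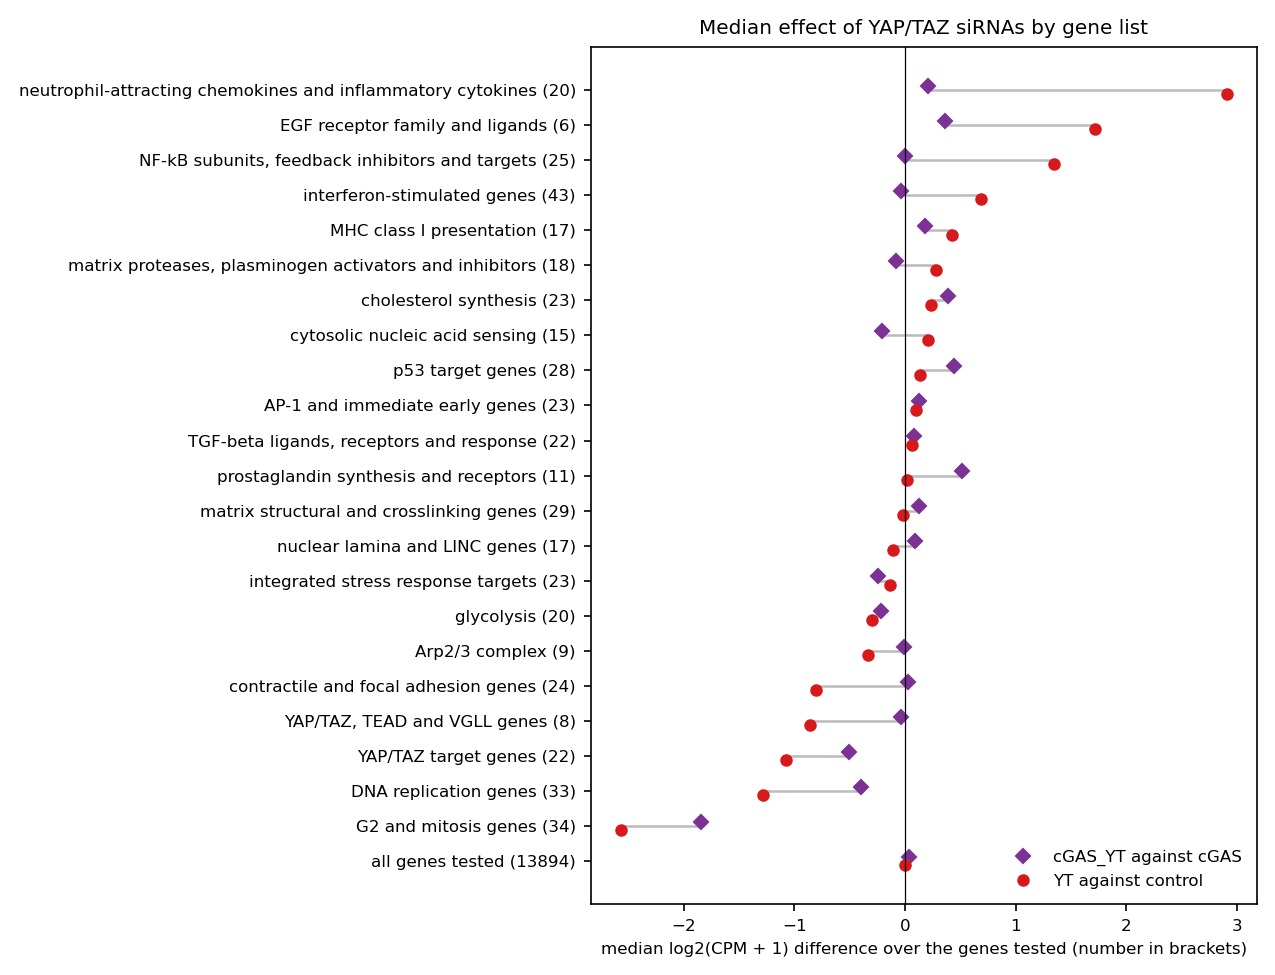
For each gene list the median log2(CPM + 1) difference over its tested genes is shown for cGAS_YT against cGAS (diamonds) and YT against control (circles). The inflammatory and NF-kB lists move to 0.21 and 0.00 with cGAS siRNAs, against 2.91 and 1.34 without, and G2 and mitosis genes stay low in both.

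Cell division genes stayed low in both settings. Of 34 G2 and mitosis genes, 31 fell in cGAS_YT against cGAS (12.7% of all genes), with a median of -1.85, and 33 fell in YT against control (20.9% of all genes), with a median of -2.57. The cGAS siRNAs alone, which changed 25.4% of all genes, lowered 31 of the 34 against control (14.3% of all genes), with a median of -1.02. The interaction was positive for 13 and negative for 1 (7.50% and 5.93% of all genes), with a median of 0.64. Of the 33 called in YT against control, 19 showed no called departure, beside 4256 (73.7%) of the 5773 called there over all genes. TOP2A, topoisomerase II alpha, had 29.7 and 23.6 CPM in cGAS_YT, 154 and 153 CPM in cGAS, 38.8 and 48.9 CPM in YT and 309 and 309 CPM in control. It was lowest with all siRNAs together, and the interaction of 0.31 ± 0.16 was not called (adjusted p = 0.243). TPX2, a spindle assembly factor, was weakened, with 11.6 and 9.55 CPM in cGAS_YT, 32.3 and 35.2 CPM in cGAS, 7.45 and 9.42 CPM in YT and 69.7 and 73.5 CPM in control (interaction 1.36 ± 0.19). Of 33 DNA replication genes, 15 fell and 1 rose in cGAS_YT against cGAS (12.7% and 15% of all genes), with a median of -0.40. In YT against control 30 fell (20.9% of all genes), with a median of -1.29. The interaction was positive for 12 of these and negative for none (7.50% and 5.93% of all genes). TYMS, thymidylate synthase, was lost, and PCNA, the sliding clamp of DNA polymerase, was reversed, with 131 and 116 CPM in cGAS_YT, 92.1 and 84.6 CPM in cGAS, 49.5 and 33.2 CPM in YT and 83.2 and 90.2 CPM in control (interaction 1.55 ± 0.19). These counts rested on single libraries. The 13 positive interactions in mitosis genes became 8 without cGAS_YT replicate 9 and 6 without cGAS replicate 7. The 12 in replication genes became 7 without cGAS_YT replicate 9, 4 without cGAS_YT replicate 10, 6 and 4 without cGAS replicates 7 and 8 in turn and 6 without control replicate 2.

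LMNB1, the lamin B1 gene, lies between these patterns, because each treatment lowered it. It had 3.45 and 2.39 CPM in cGAS_YT, 10.2 and 8.69 CPM in cGAS, 2.32 and 2.47 CPM in YT and 29.6 and 31.4 CPM in control. The cGAS_YT and YT libraries overlapped. The effect was -1.42 in cGAS_YT against cGAS and -3.21 in YT against control, an interaction of 1.79 ± 0.26 (adjusted p = 0.000183), and the product of the ratios of mean CPM values would be 0.742 CPM. LMNB2, the other B-type lamin gene, was weakened as well, with an interaction of 0.85 ± 0.14. Of 17 nuclear lamina and LINC genes 6 had a positive (7.50% of all genes) and none a negative interaction. The 6 became 2 without cGAS replicate 7 and 3 without cGAS replicate 8 or control replicate 1.

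Other changes were additive on the log scale. ACTR2 (chromosome 2, 65227753 to 65271253), a subunit of the actin-branching Arp2/3 complex, had 137 and 132 CPM in cGAS_YT, 499.6 and 503 CPM in cGAS, 158 and 130.1 CPM in YT and 531 and 540.5 CPM in control. The libraries with YAP/TAZ siRNAs overlapped whether or not cGAS siRNAs were present. The effect was -1.89 in cGAS_YT against cGAS and -1.90 in YT against control, with an interaction of 0.01 and a 95% interval between -0.26 and 0.27. Of the 9 Arp2/3 genes 3 had a positive interaction (7.50% of all genes) and none a negative one. That count became 0 without cGAS_YT replicate 9 or cGAS replicate 7, and 1 without cGAS replicate 8 or either control library. LDHA, lactate dehydrogenase A, had 84.9 and 67.7 CPM in cGAS_YT, 207 and 221 CPM in cGAS, 82.1 and 76.7 CPM in YT and 196 and 257 CPM in control (effects of -1.48 and -1.49, interaction 0.00 ± 0.17). Of 20 glycolysis genes, 14 were called in YT against control. Among these, 12 showed no departure, 9 of them within 1.5-fold, beside 4256 and 1660 of the 5773 called there over all genes. Among rises, TMOD1, an actin pointed-end capping protein gene, had 30.0 and 32.6 CPM in cGAS_YT, 8.59 and 8.10 CPM in cGAS, 19.5 and 23.3 CPM in YT and 5.19 and 4.94 CPM in control (interaction -0.09 ± 0.20). SEMA4D, a semaphorin gene, rose by 1.88 in both comparisons. PDGFRA, the receptor gene for PDGF, rose by 0.79 in cGAS_YT against cGAS and by 0.80 in YT against control, with a 95% interval of the interaction between -0.42 and 0.41. Of 23 cholesterol synthesis genes, 8 were called in YT against control, and 5 of these were additive (1660 of 5773 over all genes). A further 3 gained an effect (318 of all 13894 genes). In this list 13 genes rose in cGAS_YT against cGAS (15% of all genes) and 8 in YT against control (20.6% of all genes). The cGAS siRNAs alone raised 18 of the 23 against control (11.1% of all genes), with a median of 0.72.

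Of 28 targets of p53, a stress-activated transcription factor, 14 were called in YT against control, and 9 of these were additive (1660 of 5773 over all genes). A further 6 gained an effect (318 of all 13894 genes). In all, 19 rose and 5 fell in cGAS_YT against cGAS (15% and 12.7% of all genes), with a median of 0.45. In YT against control 10 rose and 4 fell (20.6% and 20.9% of all genes), with a median of 0.14. The interaction was positive for 7 and negative for 3 (7.50% and 5.93% of all genes), and the 7 became 4 without cGAS replicate 8. MDM2, the ubiquitin ligase of p53, was additive, with 233 and 236 CPM in cGAS_YT, 147 and 156 CPM in cGAS, 235 and 240.5 CPM in YT and 158 and 136 CPM in control. BBC3, the pro-apoptotic PUMA, rose by 0.85 and 0.86 in the same 2 comparisons. BTG2, an antiproliferative gene, gained a rise, with 64.3 and 57.6 CPM in cGAS_YT, 29.8 and 28.9 CPM in cGAS, 27.6 and 21.2 CPM in YT and 21.2 and 25.5 CPM in control (interaction 0.97 ± 0.18, adjusted p = 0.00175). FDXR, FAS, PMAIP1, XPC and CCNG1 were the other 5 gained genes of this list, and their directions differed. With each library left out in turn, the interaction ran between -0.80 and -0.62 for PMAIP1 and between 0.76 and 0.89 for FDXR. GDF15, a secreted stress factor, was weakened instead, with 352 and 295 CPM in cGAS_YT, 272 and 260.3 CPM in cGAS, 1125 and 1272 CPM in YT and 190.1 and 179 CPM in control (interaction -2.41 ± 0.14).

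The 5 reversed genes with the largest effects in cGAS_YT against cGAS were G0S2, SERPINB2, RASL11B, TMEM158 and SHISA3, each called in opposite directions. G0S2 (chromosome 1, 209675420 to 209676388), an inhibitor of the lipase ATGL, had 4.11 and 2.80 CPM in cGAS_YT, 17.5 and 16.1 CPM in cGAS, 126 and 76.3 CPM in YT and 24.3 and 29.7 CPM in control. Its effect was -2.01 in cGAS_YT against cGAS and 1.83 in YT against control, an interaction of -3.84 ± 0.29 (adjusted p = 2.03e-07). SERPINB2, plasminogen activator inhibitor 2, had 5.38 and 3.58 CPM in cGAS_YT, 17.9 and 14.3 CPM in cGAS, 8.19 and 5.76 CPM in YT and 0.830 and 1.42 CPM in control. Its lowest group was control and its highest cGAS, and both groups with YAP/TAZ siRNAs lay in between (interaction -3.56 ± 0.33). TMEM158, a Ras-induced membrane protein gene, had 169 and 128 CPM in cGAS_YT, 397 and 386 CPM in cGAS, 1550.5 and 1698 CPM in YT and 939 and 991 CPM in control (interaction -2.15 ± 0.15). RASL11B, a small GTPase gene of the Ras family, rose in cGAS_YT and fell in YT, with 25.8 and 38.0 CPM in cGAS_YT, 11.2 and 9.52 CPM in cGAS, 11.0 and 12.9 CPM in YT and 21.0 and 21.1 CPM in control (interaction 2.28 ± 0.23). SHISA3, which encodes a membrane adaptor, had 10.7 and 12.7 CPM in cGAS_YT, 4.43 and 3.68 CPM in cGAS, 2.27 and 1.23 CPM in YT and 6.38 and 8.47 CPM in control (interaction 2.96 ± 0.34). In STING_YT against STING the effects of G0S2, SERPINB2, TMEM158 and RASL11B, at -0.89, -1.63, -0.83 and 1.52, had the sign seen with cGAS siRNAs. SHISA3 was not called there. Over all 164 reversed genes, 23 (14.02%) were called in STING_YT against STING in the direction of YT against control. Of all genes tested, 19.1% rose and 19.8% fell in STING_YT against STING. Among genes with no called departure, 61.7% were called there in the direction of YT against control. LBH, a transcription cofactor gene, fell in YT and rose in cGAS_YT: it had 412 and 416 CPM in cGAS_YT, 298 and 308 CPM in cGAS, 38.1 and 45.5 CPM in YT and 224 and 231 CPM in control (interaction 2.87 ± 0.12).

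Some effects were larger with cGAS siRNAs, or were called only with them. FGL2 (chromosome 7, 77193371 to 77199848), a fibrinogen-like secreted protein gene, had 35.3 and 58.6 CPM in cGAS_YT, 7.42 and 8.10 CPM in cGAS, 26.8 and 24.0 CPM in YT and 14.2 and 12.1 CPM in control. It rose in both comparisons, by 2.41 in cGAS_YT against cGAS and by 0.90 in YT against control (interaction 1.51 ± 0.25, adjusted p = 0.000537). SLC40A1, the iron exporter ferroportin, and DACH1, a transcriptional repressor, had interactions of 1.24 and 0.99. The call of both was lost without cGAS_YT replicate 10, and that of SLC40A1, then at 0.94, also without cGAS replicate 8 or control replicate 1. BMP4, a growth factor of the TGF-beta family, had 239 and 301 CPM in cGAS_YT, 88.3 and 79.4 CPM in cGAS, 262 and 324 CPM in YT and 201 and 195 CPM in control. Its cGAS_YT and YT libraries overlapped, while cGAS alone was low (interaction 1.11 ± 0.17). S1PR1 (chromosome 1, 101236865 to 101243713), a sphingosine-1-phosphate receptor, gained a rise, with 28.9 and 30.9 CPM in cGAS_YT, 7.53 and 4.81 CPM in cGAS, 1.80 and 1.39 CPM in YT and 1.30 and 0.909 CPM in control (interaction 1.83 ± 0.31, adjusted p = 0.000832). MYH11, smooth muscle myosin heavy chain, gained a rise and CPD, a carboxypeptidase, gained a fall, with interactions of 1.68 and -1.37. Of the 63 strengthened genes, 62 (98.4%) were called in the same direction in STING_YT against STING. That was not particular to this class: it held for 304 of the 315 weakened genes (96.5%) and for 61.7% of those with no departure. Of all genes tested, 19.1% rose and 19.8% fell there.

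Proteases and their inhibitors departed in both directions. Of 18 matrix proteases, plasminogen activators and inhibitors, 8 had a negative and 3 a positive interaction (5.93% and 7.50% of all genes). PLAT, tissue plasminogen activator, had 34.4 and 33.8 CPM in cGAS_YT, 38.7 and 41.2 CPM in cGAS, 703 and 587 CPM in YT and 253 and 257 CPM in control. Its level was low in every library with cGAS siRNAs (interaction -1.55 ± 0.14, adjusted p = 1.23e-06). MMP3, stromelysin, was lost, with 4.44 and 3.16 CPM in cGAS_YT, 4.15 and 2.60 CPM in cGAS, 42.0 and 45.5 CPM in YT and 11.0 and 9.15 CPM in control (interaction -1.88 ± 0.27). TIMP3, a metalloproteinase inhibitor, gained a fall, with 253 and 266 CPM in cGAS_YT, 445 and 445 CPM in cGAS, 1012 and 1044 CPM in YT and 1050.2 and 993 CPM in control.

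Interferon-stimulated genes, which defend against viruses, are described apart because the cGAS siRNAs alone raised all of those tested. All 43 tested were called higher in cGAS than in control (11.1% of all genes), with a median of 2.61. In cGAS_YT against cGAS 1 rose and 1 fell (15% and 12.7% of all genes), with a median of -0.03. In YT against control 24 rose and none fell (20.6% and 20.9% of all genes), with a median of 0.69. The interaction was negative for 9 and positive for none (5.93% and 7.50% of all genes). MX1, an antiviral GTPase, had 780.4 and 246 CPM in cGAS_YT, 554 and 529 CPM in cGAS, 33.7 and 42.5 CPM in YT and 11.7 and 11.0 CPM in control. The 2 cGAS_YT libraries lay on either side of both cGAS libraries, and the interaction of -1.95 ± 0.58 was called (adjusted p = 0.0347). It was -2.78 without cGAS_YT replicate 9 and -1.12 without cGAS_YT replicate 10, and the call was lost without cGAS_YT replicate 10, either cGAS library or either control library. IFIT1, an RNA-binding interferon-induced protein, had 282 and 114 CPM in cGAS_YT, 205 and 187 CPM in cGAS, 8.35 and 8.75 CPM in YT and 13.7 and 10.9 CPM in control, and its interaction was not called (adjusted p = 0.652). How reads were split between the related IFIT genes is uncertain.

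All 43 interferon-stimulated genes were higher in cGAS_YT replicate 9 than in replicate 10, with a median ratio of 1.92. In replicate 9, 39 of 43 lay above both cGAS libraries, and in replicate 10, 39 of 43 lay below both. Their summed level was 12284 and 6650 CPM in cGAS_YT, 9835 and 9156 CPM in cGAS, 1795 and 1973 CPM in YT and 1226 and 1189 CPM in control. Relative to multiplied ratios of mean CPM the observed cGAS_YT level had a median ratio of 0.622, below 1 for 36 of 43 genes. Relative to added CPM differences the median ratio was 0.964, below 1 for 27. By library the median ratio to the added expectation was 1.24 in replicate 9 and 0.605 in replicate 10. The 9 negative interactions became 29 without cGAS_YT replicate 9 and 4 without cGAS_YT replicate 10. They became 2 and 4 without cGAS replicates 7 and 8 in turn, 14 without YT replicate 3 and 4 and 3 without control replicates 1 and 2 in turn. The part of the interferon response in the other departures was not tested.

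**Figure D5:**
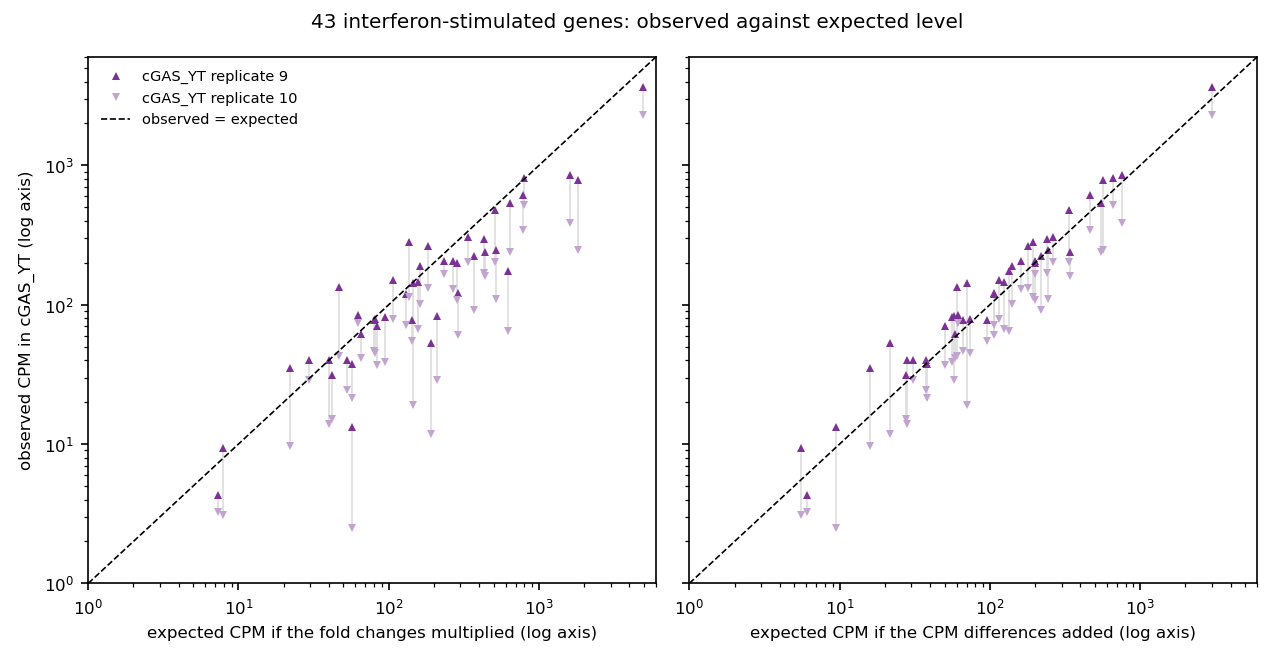
Observed CPM of the 43 interferon-stimulated genes in cGAS_YT replicates 9 and 10 against the level expected if ratios of mean CPM multiplied (left) or CPM differences added (right), on log axes. On the right the replicates straddle the dashed line of equality, with median ratios of 1.24 and 0.605, and on the left most points lie below it.

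The sign of the called interactions was also compared with the level expected from added CPM differences in the same libraries, as a description with no test. Of the 824 negative interactions, 819 (99.4%) were below that level, and of the 1042 positive ones, 1034 (99.2%) were above it. For 150 of the positive ones the added expectation was at or below 0, so that any level lay above it.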

How the data were processed

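Transcripts of WI-38 fibroblasts were sequenced from their 3' ends, per the labels' protocols, so values need no correction for length. STAR 2.5.3a, featureCounts, edgeR and the hg38 build are named in the submitters' processing notes; the sources used here give no parameters, annotation or strand setting, so overlapping and antisense genes may share reads. Deposited was a table with a signal value for each gene in each library, whose layout is that of CPM scaled between libraries by the authors. All of these deposited signal values (100%) were whole multiples of the worth of 1 read, within 0.01 reads, which gave back whole reads. The floor of 3 reads covers counting error only.

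All 12 libraries, 6 groups of 2 by title, entered 1 fit by limma 3.58.1 (R 4.3.3; trended prior, 6 residual and 10.1 prior degrees of freedom) of log2(CPM + 1) over the 13894 genes that reached 1 CPM in 2 or more libraries. Contrasts were cGAS_YT against cGAS, YT against control, their difference, cGAS against control and STING_YT against STING, with Benjamini-Hochberg adjustment over all genes within each, at 0.05. Standard errors and 95% intervals are limma's. The design assumed CPM and was kept. Expected levels were computed from group means in CPM, as cGAS times YT over control or as cGAS plus YT minus control, so the product differs from an interaction of 0 on the log2(CPM + 1) scale at low levels. Also tried were a pseudocount of 0.25 or 4, no filter or 5 CPM, median-of-ratios scaling, a constant prior, only the 8 libraries, each library left out (its partner then assumed to vary like other groups), and edgeR 4.0.16 (quasi-likelihood) and DESeq2 1.42.0 on the recovered reads. The pipeline was tested on simulated data.

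Members, classes and the 24 gene lists were chosen with earlier results of these data known. Named genes were the targets, the 12 lowest and 12 highest called interactions with a mean of at least 5 CPM, the 5 largest of the reversed, strengthened and gained classes, the 6 largest additive rises and falls, up to 4 members per list by smallest interaction p, and LMNB1, ACTR2, CYR61, CTGF, MX1, IFIT1, IL6 and CXCL8. Only some of these are described, and a few further list members were named after their values were seen. Positions are from GENCODE 29 on GRCh38, which held 12571 of 13937 symbols (90.2%); promoters are from RefSeq.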

Additional observations from a re-analysis of the deposited data

Results flagged for a closer look

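The effect of the YAP/TAZ siRNAs differed between cells with and without cGAS siRNAs, by limma's test of the interaction, for 824 genes in the negative and 1042 in the positive direction. Among genes whose effect changed sign, with both effects and the interaction called, the interaction was -3.84 for G0S2, -3.56 for SERPINB2, -2.15 for TMEM158, 2.28 for RASL11B and 2.96 for SHISA3. No group had the 4 samples needed to test for a single library far from the others.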

How the results depend on the processing

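No paired analysis was possible because each replicate number occurs in 1 group only. No called interaction changed sign under any alternative among the genes called both ways. With edgeR 1753 genes and with DESeq2 1836 genes were called, beside 1866 with limma. Of 2481 values of 146 named genes under alternatives, 2314 kept direction and side of the threshold, 154 lost the call, 13 passed it and 0 reversed; ARPC1A lost its call most often. MX1 was not called with edgeR (adjusted p = 0.0604), DESeq2 (0.166) or a constant prior (0.143). Positive interactions in mitosis genes numbered 22 with a pseudocount of 4. A constant prior gave 32 strengthened genes and 2 negative interactions in interferon-stimulated genes. A fit of the 8 libraries only gave 203 weakened and 24 strengthened genes, and positive interactions in 6 replication and 8 mitosis genes. Leaving out each library in turn, the counts ranged between 470 and 1334 for negative and 636 and 1914 for positive interactions, 652 and 1568 for lost, 139 and 592 for weakened, 84 and 330 for reversed, 25 and 85 for strengthened, 146 and 582 for gained and 3222 and 4532 for no departure. The list counts ranged between 12 and 14 for cytokines, 17 and 22 for NF-kB genes, 2 and 29 for interferon-stimulated genes, 11 and 14 for YAP/TAZ targets, 12 and 17 for contractile genes, 4 and 15 for replication genes and 6 and 15 for mitosis genes. The cause was not tested. Precision is limited by 2 libraries a group and, near 3 reads, by depth.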
